A study of Mus musculus with 6 samples.

Results

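The 38 genes described here belong to the endoplasmic reticulum (ER) stress and integrated stress responses and were measured in orthotopic mouse liver tumors after treatment with a nanogel that carried glucose oxidase (GOx) and doxorubicin (DOX). They were chosen by symbol from a fixed list, all 38 were present among the 55536 genes of the count table, and all 38 were among the 15374 genes kept after the filter on low counts. By the branch that is conventionally credited with them, 19 were placed with PERK/ATF4, 6 with IRE1/XBP1 and 13 with ATF6. Each of the 6 tumors gave 1 RNA sequencing library. Tumors came from HCA-1 cells, a single murine hepatocellular carcinoma (HCC) line, injected under the liver capsule of male C3H mice (C3H/HeNCrNarl in the study's methods) aged 6 to 8 weeks. The control group comprised 3 untreated tumors, numbered 5, 6 and 7. In the GOX_DOX group, 3 tumors numbered 1, 2 and 5 came from mice that received nanoparticles loaded with both agents intravenously (the lipid–gelatin–protamine formulation GOx-DOX-LGP), with doses on days 18, 19 and 20 in the labels. The labels place the analysis 3 h after injection but on day 17, so the day of sampling could not be taken from them. For tumors measured by real-time PCR, the study's methods give the same dose days and harvest on the day after the last dose. They do not say whether the sequenced tumors were the same ones. No group received empty nanogel, GOx alone or DOX alone, so the agents and the carrier cannot be told apart. Because the tumors grew inside the liver, each library could hold RNA of host liver as well as of tumor.

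The ER folds secreted and membrane proteins, and cells answer to unfolded protein there through 3 sensors. PERK, like the amino acid sensor GCN2, phosphorylates the translation factor eIF2α, which slows general protein synthesis while the mRNA of the transcription factor ATF4 is translated better; ATF4 then induces genes of amino acid supply and, when stress persists, the pro-apoptotic factor CHOP (Ddit3). IRE1 splices the Xbp1 mRNA so that it encodes an active transcription factor, whereas ATF6 is cut in the Golgi to release one, and both raise ER chaperones and the machinery of ER-associated degradation (ERAD). Phosphorylation, splicing and cleavage cannot be seen in gene-level counts, so what follows concerns mRNA levels only. Glucose oxidase consumes glucose and produces hydrogen peroxide, both of which are known to disturb protein folding, and whether tumor levels of these genes differed with treatment was the question of the comparison.

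The promoters of these genes show which of them carry the letters that the branch transcription factors are known to read. RefSeq promoters (mouse build GRCm38.p6, 250 bases before to 50 after the annotated start) were found for 34 of the 38 genes. Both strands were searched for the ER stress element ERSE, read by ATF6 together with NF-Y and spelled CCAAT and CCACG with 9 bases between them, and for its variant ERSE-II, spelled ATTGG and CCACG with a single base between them. Searched as well were the UPRE core TGACGTGG, the C/EBP-ATF response element CARE read by ATF4 (TGATGNAA, N being any base) and the cAMP response element TGACGTCA. The letters CCACG occur inside both ERSE forms, but none of the 38 genes held both forms. The ERSE letters stood in 6 of the 10 ATF6-branch genes with a promoter (Calr, Canx, Creld2, Hsp90b1, Hspa5 and Pdia6), in Dnajc3 of the IRE1/XBP1 branch and in no gene of the PERK/ATF4 branch, against 0.119% of all 32851 promoters. ERSE-II was found only in Herpud1 among these genes and in 0.0365% of all promoters. CARE was found in 5 of 18 PERK/ATF4 genes (Asns, Atf3, Chac1, Trib3 and Vldlr) and in Herpud1, against 3.97% of all promoters. The cAMP response element was found in Ppp1r15a alone, against 1.79% of all promoters, and the UPRE core in none of these genes, against 0.676%. Some of these genes entered such branch lists because of these elements, so the matches describe the members and are not evidence of binding here.

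Stretches before the start are printed below for genes whose levels are described further on, with the matched element in capitals. ERSE is in capitals for the chaperone and folding genes Hspa5, Hsp90b1 (which holds it at 2 places), Pdia6, Creld2 and Dnajc3.
Hspa5, plus strand, chr2:34771950-34772089: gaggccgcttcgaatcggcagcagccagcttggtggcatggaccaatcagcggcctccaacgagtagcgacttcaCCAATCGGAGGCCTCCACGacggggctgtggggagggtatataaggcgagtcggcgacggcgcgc
Hsp90b1, minus strand, chr10:86705445-86705664: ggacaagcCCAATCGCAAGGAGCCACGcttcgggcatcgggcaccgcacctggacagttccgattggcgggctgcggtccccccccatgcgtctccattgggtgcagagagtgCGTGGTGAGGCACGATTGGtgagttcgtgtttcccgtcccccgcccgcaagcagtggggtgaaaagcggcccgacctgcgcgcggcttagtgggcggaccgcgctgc
Pdia6, plus strand, chr12:17266449-17266588: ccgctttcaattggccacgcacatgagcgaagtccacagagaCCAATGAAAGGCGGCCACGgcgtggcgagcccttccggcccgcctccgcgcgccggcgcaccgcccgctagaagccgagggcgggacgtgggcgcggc
Creld2, plus strand, chr15:88819506-88819645: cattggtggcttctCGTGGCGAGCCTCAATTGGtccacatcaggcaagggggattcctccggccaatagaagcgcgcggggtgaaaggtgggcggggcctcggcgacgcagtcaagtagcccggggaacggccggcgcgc
Dnajc3, plus strand, chr14:118937792-118937931: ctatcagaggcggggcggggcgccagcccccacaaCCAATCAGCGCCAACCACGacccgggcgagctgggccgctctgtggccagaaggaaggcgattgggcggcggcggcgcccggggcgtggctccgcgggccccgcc
The Herpud1 stretch is shown because this gene had the largest fold change of the 38 with all 3 controls, with CARE (first run of capitals, on the reverse strand) and ERSE-II (second run) in capitals.
Herpud1, plus strand, chr8:94386289-94386428: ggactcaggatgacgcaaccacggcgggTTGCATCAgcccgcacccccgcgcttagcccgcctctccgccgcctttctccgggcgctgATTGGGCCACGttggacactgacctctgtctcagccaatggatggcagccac
Asns and Atf3 are shown as PERK/ATF4 genes that separated controls 6 and 7 from the other libraries, with CARE in capitals, on the reverse strand for Atf3.
Asns, minus strand, chr6:7693210-7693349: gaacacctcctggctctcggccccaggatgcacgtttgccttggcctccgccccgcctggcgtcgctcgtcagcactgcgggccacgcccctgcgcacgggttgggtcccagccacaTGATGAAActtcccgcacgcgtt
Atf3, minus strand, chr1:191183334-191183473: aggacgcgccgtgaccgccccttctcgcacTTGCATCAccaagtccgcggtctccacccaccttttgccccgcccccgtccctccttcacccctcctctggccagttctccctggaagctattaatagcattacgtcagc

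**Figure D1:**
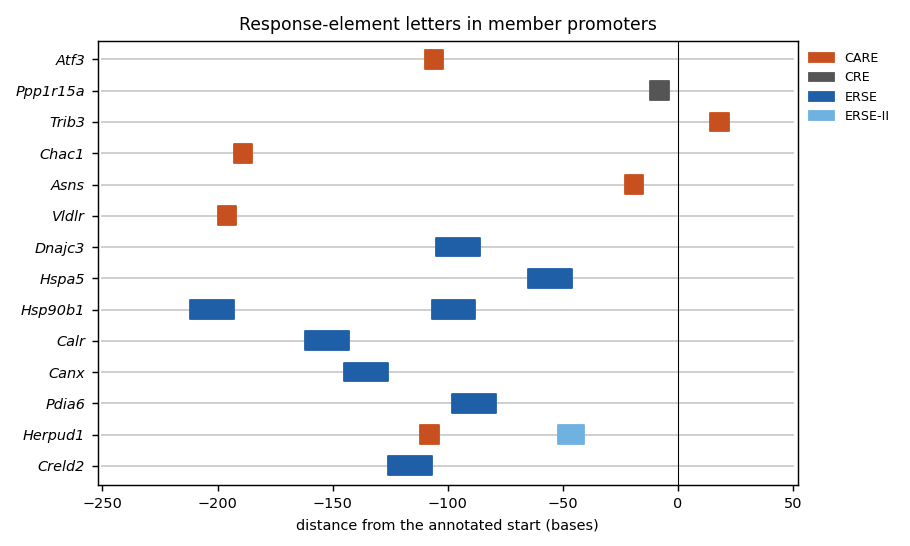
Positions of matched response elements in the promoters of the 14 genes that hold any (rows), as distance in bases from the annotated start (vertical line, x axis from 250 bases before to 50 after). Blue boxes mark ERSE, light blue ERSE-II, orange CARE and grey the cAMP response element; ERSE boxes lie in ATF6-branch genes and Dnajc3, and CARE boxes in PERK/ATF4 genes and Herpud1.

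Control tumor 5 stood apart from control tumors 6 and 7. Library totals ranged from 15529940 to 18401178 counts. The Pearson correlation of log2 CPM (counts per 1000000 counts of the scaled library) across the kept genes, which are not independent replicates, was 0.97 between controls 6 and 7, 0.66 to 0.73 between control 5 and either of them, and 0.97 to 0.98 between control 5 and the treated tumors. Summed over 19 hepatocyte markers, the level was 833 CPM in control 5, 149392 in control 6, 229013 in control 7, 4358 in treated tumor 1, 1824 in treated tumor 2 and 2553 in treated tumor 5, so that controls 6 and 7 held far more hepatocyte marker RNA than the other 4 libraries. Albumin (Alb), a defining hepatocyte marker, was at 353, 73804 and 128244 CPM in controls 5, 6 and 7 and at 1893, 733 and 1061 CPM in treated tumors 1, 2 and 5. None of these markers was at 0 in any library. The summed level of 12 proliferation genes ran the other way, at 1373, 403 and 97.6 CPM in controls 5, 6 and 7 against 980 to 1289 CPM in the treated tumors. Of 9 HCC markers kept, 5 had positive and 4 negative log2 fold changes. Controls 6 and 7 lay below all treated tumors for 3 (37.2% of all genes) and above them for 3 (34.7%). Afp and Gpc3 were low in all 6 libraries (2.25 to 13.2 CPM and 0.784 to 2.29 CPM), whereas Spp1 was at 6838, 463 and 178 CPM in controls 5, 6 and 7 and at 4589 to 6936 CPM in the treated tumors. Other cell types differed as well. Over all genes kept, treated tumors lay above all 3 controls for 8.87% and below all 3 for 8.31%. T cell markers lay above all controls in treated tumors for 9 of 10 genes (36.9 to 113 CPM summed in controls, 150 to 232 CPM in treated tumors), macrophage markers for 4 of 10 (819 to 1693 against 1642 to 4333 CPM) and interferon-γ response genes for 5 of 12 (1366, 380 and 276 CPM in controls 5, 6 and 7 against 1307 to 1706 CPM), whereas endothelial markers lay below all controls for 7 of 10 (209 to 406 against 148 to 186 CPM). Fibroblast markers were at 5911, 1823 and 1477 CPM in controls 5, 6 and 7 and at 2287 to 7127 CPM in treated tumors. Plasma cell markers summed to 477 to 570 CPM in controls and 421 to 713 CPM in treated tumors. The largest part of that sum was Sdc1 (465, 233 and 283 CPM in controls 5, 6 and 7). Treated tumors lay below all controls for 3 of the 9 plasma cell markers kept and above for 0. Jchain was at 10.5, 72.8 and 98.5 CPM in controls 5, 6 and 7 and at 4.41 to 5.10 CPM in treated tumors. In bulk tissue, fewer cells of a type and less RNA per cell cannot be told apart. Fold changes are therefore given below with all 3 controls and, for the genes whose values in every library are printed, also against controls 6 and 7 and against control 5 as the only control. How much of any difference goes with hepatocyte marker RNA was not tested beyond the fit with hepatocyte markers as a covariate. Whether that RNA came from host liver or from tumor cells was not tested.

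With all 3 controls, no gene of the ER stress and integrated stress responses passed edgeR's test, and the calls depended on the tool. Of the 38 genes, 0 reached an adjusted p under 0.05 in edgeR's quasi-likelihood test with Benjamini-Hochberg adjustment, as did 0 of 15374 genes tested (0%), with 2685 genes at an unadjusted p under 0.05. The smallest adjusted p among the 38 was 0.247. The log2 fold change, treated minus control, was positive for 19 and negative for 19, with a median of 0.01 beside 0.02 over all genes. At an unadjusted p under 0.05 stood 3 of the 38 with lower levels in treated tumors (Stbd1, Edem1 and Herpud1) and 0 with higher levels, while the shares over all genes were 14.6% lower and 2.87% higher. The 3 treated tumors lay above all 3 controls for 0 of 38 genes (8.87% of all genes) and below all 3 for 2 of 38, Eif2ak3 and Edem1 (8.31% of all genes). DESeq2 called 1 of 38, Herpud1, as lower (9.54% of all genes with an adjusted p) and 0 as higher (0.994%). Limma voom with quality weights called 14 of 38 higher and 11 lower (29.2% and 30.9% of all genes), and it gave control 5 the lowest weight of the 6 libraries, 0.0844 against 0.615 to 4.97 for the others.

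The result turned on control 5. Without it, 11 of the 38 were called higher and 9 lower in treated tumors at an adjusted p under 0.05 in edgeR, where 22.2% and 25.5% of all genes tested were called. Both counts lie near what those shares give for a list of this length and are no result particular to the 38 as a whole. By branch they were uneven. Of 19 PERK/ATF4 genes 11 were called higher and 3 lower, of 6 IRE1/XBP1 genes 0 and 3, and of 13 ATF6 genes 0 and 3. Whether the branches differ from each other was not tested. All 11 called higher were PERK/ATF4 genes, and the 9 called lower were Eif2ak4, Atf5 and Stbd1 of that branch, Xbp1, Dnajc3 and Edem1 of the IRE1/XBP1 branch and Pdia4, Herpud1 and Sel1l of the ATF6 branch. Controls 6 and 7 both lay below the treated tumors for 12 of 38 genes (37.2% of all genes) and both above for 12 (34.7%). Control 5 lay above all treated tumors for 12 (28.4% of all genes), below all of them for 7 (26%) and within their range for 19. With control 5 as the only control, a fit in which the lone control is assumed to vary like the treated tumors, 0 of 38 and 0% of all genes were called, with 3 of the 38 at an unadjusted p under 0.05 (Sdf2l1 higher, beside 3.18% of all genes, and Atf3 and Ppp1r15a lower, beside 2.29%).

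**Figure D2:**
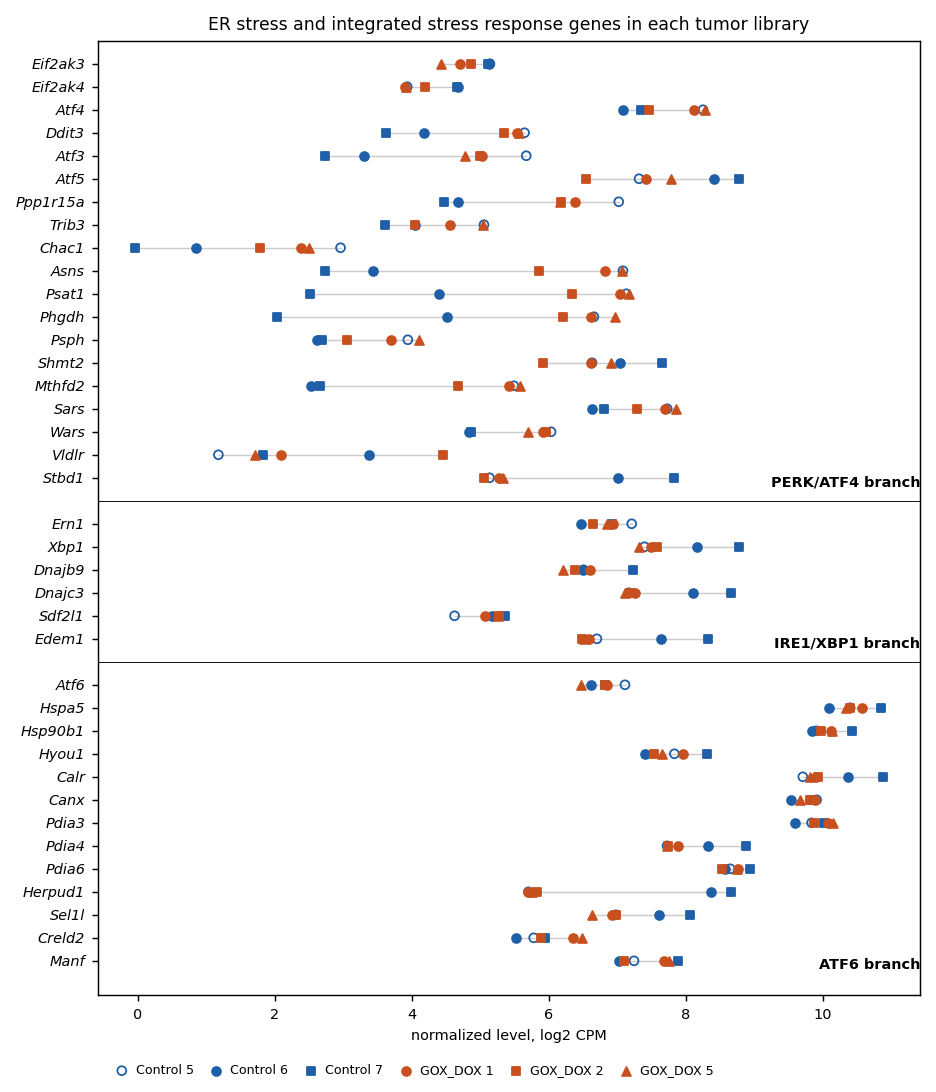
Normalized level of each of the 38 genes (rows, by branch) in the 6 libraries, as log2 CPM on the x axis; blue symbols are controls (open circle control 5, filled circle 6, square 7), orange symbols GOX_DOX tumors (circle 1, square 2, triangle 5), and a grey line joins the lowest and highest. For the amino acid enzymes Asns, Psat1, Phgdh and Mthfd2 the open circle lies with the orange symbols and the filled blue symbols to their left, and for Herpud1, Stbd1 and Edem1 the filled blue symbols lie to the right.

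The kinases that start the PERK/ATF4 branch did not pass edgeR's test, and voom gave them adjusted p of 0.0176 (Eif2ak3) and 0.00365 (Eif2ak4). Eif2ak3, which encodes PERK (chromosome 6, 70844515 to 70905245), was at 35.2, 34.9 and 34.5 CPM in controls 5, 6 and 7 and at 26.05, 29.1 and 21.4 CPM in treated tumors 1, 2 and 5. The groups did not overlap and the 3 controls lay close together, which set Eif2ak3 apart from most of the 38. Its log2 fold change was -0.45 (SE 0.19, edgeR adjusted p = 0.298), and it was -0.41 against controls 6 and 7, -0.45 against control 5 alone and -0.47 with hepatocyte markers as a covariate, where the unadjusted p of the edgeR test was 0.0606. Counted by library totals alone it turned to 0.07, a scaling that moved the median of all genes to 0.51. The exact permutation test on its 6 log2 CPM values gave p = 0.1 (two-sided), the smallest that 3 against 3 libraries allow. Eif2ak4, which encodes GCN2, was at 15.2, 25.5 and 25.2 CPM in the controls and at 14.8, 18.3 and 14.9 CPM in treated tumors. Control 5 fell within the treated range, and the log2 fold change of Eif2ak4 was -0.45 (SE 0.27, edgeR adjusted p = 0.404), -0.63 (adjusted p = 0.0348) without control 5 and 0.09 against control 5 alone.

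Among the transcription factors of the PERK/ATF4 branch, control 5 lay among or above the treated tumors and controls 6 and 7 were below it, with Atf5 as the exception. Atf4 was at 305, 135 and 162 CPM in controls 5, 6 and 7 and at 278, 177 and 311 CPM in treated tumors 1, 2 and 5. Its log2 fold change was 0.35 (SE 0.41, edgeR adjusted p = 0.635, 95% interval -0.66 to 1.35), 0.81 without control 5 (adjusted p = 0.0514) and -0.24 against control 5 alone. Ddit3, the CHOP gene, was at 49.97, 18.1 and 12.3 CPM in controls and at 46.4, 40.5 and 47.1 CPM in treated tumors. The treated tumors lay close together, between control 5 and the other controls, so the difference of 0.73 on the log2 scale (SE 0.53, edgeR adjusted p = 0.466) fell within the spread of the controls. Against controls 6 and 7 it was 1.59 (adjusted p = 0.00157), and against control 5 alone it was -0.15. Atf3, a stress-induced repressor and activator of transcription, was at 50.8, 9.75 and 6.56 CPM in controls and at 32.5, 31.7 and 27.2 CPM in treated tumors. Here control 5 was above every treated tumor, and the log2 fold change went from 0.44 (SE 0.76, edgeR adjusted p = 0.742) to 1.93 without control 5 (adjusted p = 0.000942) and to -0.72 against control 5 alone (unadjusted p = 0.0117 in edgeR). Atf5, a related factor, had a negative fold change of -0.95 (SE 0.50, edgeR adjusted p = 0.357), -1.24 without control 5 (adjusted p = 0.0257) and 0.03 against control 5 alone.

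The feedback genes followed Atf3. Ppp1r15a encodes GADD34, which directs dephosphorylation of eIF2α and so restores translation, Trib3 encodes a pseudokinase that restrains ATF4, and Chac1 encodes an enzyme that degrades glutathione. All 3 had positive log2 fold changes with all controls, 0.23 to 0.42, and for all 3 control 5 lay above every treated tumor. Against control 5 alone their median was -0.71, and against controls 6 and 7 it was 1.70, so the sign depended on the control used. Ppp1r15a and Chac1 were called higher without control 5 in edgeR, beside 22.2% of all genes, and Trib3 was not (adjusted p = 0.086).

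Among the enzymes of amino acid and one-carbon supply, Phgdh, Psat1, Mthfd2 and Asns had the largest positive differences of the 38 with all 3 controls. Psph was at 0.46 and Shmt2 at -0.63 on the log2 scale. Asns makes asparagine, Phgdh, Psat1 and Psph make serine, and Shmt2 and Mthfd2 pass its carbon on to mitochondrial folate. Phgdh was at 101, 22.6 and 3.98 CPM in controls 5, 6 and 7 and at 98.4, 73.5 and 125 CPM in treated tumors 1, 2 and 5. Psat1 was at 140, 21.0 and 5.60 CPM in controls and at 131, 81.2 and 143 CPM in treated tumors. Asns, named after its values were seen, was at 135, 10.7 and 6.56 CPM in controls and at 113, 57.8 and 135 CPM in treated tumors. Control 5 was within the treated range for Phgdh and Psat1 and just above it for Asns, while controls 6 and 7 were far below every treated tumor. The log2 fold changes with all controls were 1.21 for Phgdh (SE 1.02, edgeR adjusted p = 0.52), 1.09 for Psat1 (SE 1.07, adjusted p = 0.571) and 1.00 for Asns (SE 1.14, adjusted p = 0.621). Without control 5 those for Asns, Psat1 and Phgdh were 3.58, 3.17 and 2.90 (edgeR adjusted p = 0.000722, 0.00375 and 0.0102), and against control 5 alone they were -0.40, -0.23 and -0.02. With the hepatocyte covariate they were 0.62, 0.63 and 0.68, with unadjusted p of 0.215 to 0.291 in edgeR. Without control 5, 5 of the 6 enzymes were called higher, beside 22.2% of all genes. The exception was Shmt2 at -0.81 (edgeR adjusted p = 0.0738). Phgdh carries a further limit, since 47.8% of the 50-base stretches of its transcripts also occur in other annotated genes, Gm7901, Gm9347 and Gm8341 foremost.

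Of the rest of the PERK/ATF4 branch, the aminoacyl-tRNA synthetase genes Sars and Wars had log2 fold changes of 0.49 and 0.49. Both were called higher without control 5, beside 22.2% of all genes. Vldlr, a lipoprotein receptor that PERK signaling is known to raise, stood at 21.8 CPM in treated tumor 2 and at 2.15 to 10.3 CPM in the other 5 libraries, so that its log2 fold change of 0.88 (SE 0.94, edgeR adjusted p = 0.601) rested on 1 tumor and was -0.50 without it, 0.52 without control 5 and 2.19 against control 5 alone. Stbd1, whose protein tethers glycogen to membranes, was at 35.1, 128 and 228 CPM in controls 5, 6 and 7 and at 38.7, 33.2 and 40.3 CPM in treated tumors. It ran opposite to the amino acid genes, high in controls 6 and 7 and equal elsewhere, with a log2 fold change of -1.80 (SE 0.64, edgeR adjusted p = 0.249), -2.22 without control 5 (adjusted p = 0.000573), -0.44 with the hepatocyte covariate and 0.11 against control 5 alone. Over the 19 PERK/ATF4 genes, 14 log2 fold changes were positive and the median was 0.44 with all controls, 1.04 without control 5, 0.03 with the hepatocyte covariate and -0.21 against control 5 alone, where 15 of 19 were negative. The corresponding medians over all genes were 0.02, 0.08, 0.00 and 0.03.

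In the IRE1/XBP1 branch the sensor overlapped between groups and 5 of 6 genes had lower mean levels in treated tumors, none past edgeR's test. Ern1, which encodes IRE1α, was at 148, 88.9 and 121 CPM in controls 5, 6 and 7 and at 122, 99.9 and 115 CPM in treated tumors 1, 2 and 5. The groups overlapped throughout, with a log2 fold change of -0.09 (SE 0.26, edgeR adjusted p = 0.855, 95% interval -0.72 to 0.55), 0.13 without control 5 and -0.38 against control 5 alone. Xbp1, total mRNA of both splice forms, was at 168, 286 and 440 CPM in controls and at 180, 190 and 159 CPM in treated tumors. Control 5 again lay among the treated tumors, and the log2 fold change was -0.76 (SE 0.39, edgeR adjusted p = 0.355), -1.01 without control 5 (adjusted p = 0.0135) and 0.08 against control 5 alone.

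Edem1, a lectin-like protein that hands misfolded glycoproteins to ERAD, was at 104, 200 and 319 CPM in controls 5, 6 and 7 and at 95.7, 89.0 and 91.7 CPM in treated tumors 1, 2 and 5. The groups did not overlap, but control 5 was just above the highest treated tumor while controls 6 and 7 were well above. Its log2 fold change was -1.17 (SE 0.42, edgeR adjusted p = 0.252, exact permutation p = 0.1), -1.46 without control 5 (edgeR adjusted p = 0.00236), -0.47 with the hepatocyte covariate and -0.16 against control 5 alone. Dnajc3, a co-chaperone of BiP, was at 144, 276 and 405 CPM in controls and at 153, 148 and 138 CPM in treated tumors, with a log2 fold change of -0.91 (SE 0.41, edgeR adjusted p = 0.31), -1.19 without control 5 (adjusted p = 0.00496) and 0.04 against control 5 alone. Dnajb9, another co-chaperone of BiP, and Sdf2l1, a part of ER chaperone complexes, had log2 fold changes of -0.38 and 0.12. Over the 6 genes, 5 fold changes were negative with a median of -0.57 on the log2 scale, which was -0.74 without control 5, -0.22 with the hepatocyte covariate and -0.02 against control 5 alone.

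The ATF6 branch held the most abundant genes of the 38, and none of its 13 genes passed the test in edgeR. Per kilobase of merged exon, the highest control means of the 38 genes were 468 CPM for Calr, 337 for Hspa5, 288 for Pdia3 and 269 for Hsp90b1, and the lowest was 0.525 for Vldlr. Atf6 was at 138, 97.6 and 112 CPM in controls 5, 6 and 7 and at 115, 113 and 88.9 CPM in treated tumors 1, 2 and 5, with a log2 fold change of -0.14 (SE 0.24, edgeR adjusted p = 0.739), 0.04 without control 5 and -0.37 against control 5 alone. Hspa5, which encodes BiP, the chaperone that holds all 3 sensors inactive in unstressed cells, was at 1348, 1087 and 1842 CPM in controls and at 1514, 1344 and 1287 CPM in treated tumors. The treated tumors lay inside the control range, and the log2 fold change was -0.05 (SE 0.40, edgeR adjusted p = 0.954), -0.05 without control 5 and 0.05 against control 5 alone. Its 95% interval from -1.02 to 0.93 on the log2 scale still allows changes of that size in either direction, so equal levels are not shown. Hsp90b1, Canx and Pdia6, which encode the chaperone GRP94, the lectin chaperone calnexin and a protein disulfide isomerase, had log2 fold changes between -0.04 and 0.02 (SE 0.28 to 0.36). Hyou1, Pdia3 and Manf, which encode a nucleotide exchange factor of BiP, a thiol oxidoreductase that works with calnexin and calreticulin, and a secreted ER stress protein, lay between -0.17 and 0.21.

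Herpud1, an ERAD scaffold of the ER membrane, had the largest fold change of the 38 with all 3 controls; without control 5 Asns, Psat1 and Phgdh exceeded it in size, and against control 5 alone Vldlr was largest at 2.19. It was at 51.99, 330 and 406 CPM in controls 5, 6 and 7 and at 51.9, 56.8 and 54.1 CPM in treated tumors 1, 2 and 5. Control 5 and the 3 treated tumors were nearly equal, and the entire difference came from controls 6 and 7. Its log2 fold change was -2.27 (SE 0.72, edgeR adjusted p = 0.247, DESeq2 adjusted p = 0.0262). It was -2.73 without control 5 (edgeR adjusted p = 6.89e-05), 0.08 against control 5 alone and -0.59 with the hepatocyte covariate (unadjusted p = 0.033 in edgeR), the only 1 of the 38 under 0.05 in that fit, where 4.86% of all genes were lower and 2.47% higher at that p. Sel1l, the adaptor of the HRD1 ubiquitin ligase, was at 126, 196 and 267 CPM in controls and at 121, 126 and 99.0 CPM in treated tumors, and its log2 fold change was -0.77 (SE 0.33, edgeR adjusted p = 0.301), -0.97 without control 5 (adjusted p = 0.00984) and -0.11 against control 5 alone. Pdia4 was at 212, 320 and 471 CPM in controls and at 236, 215 and 212 CPM in treated tumors, with a log2 fold change of -0.60 (SE 0.35, edgeR adjusted p = 0.396), -0.81 without control 5 (adjusted p = 0.0269) and 0.08 against control 5 alone. Calr, which encodes the lectin chaperone calreticulin, stood at -0.51 on the log2 scale. Creld2, a secreted ER stress protein named after its values were seen, was at 54.8, 45.6 and 61.3 CPM in controls and at 81.4, 58.8 and 89.3 CPM in treated tumors. Only treated tumor 2 fell below the highest control, and the log2 fold change of 0.50 (SE 0.24, edgeR adjusted p = 0.333) was 0.55 without control 5, 0.49 against control 5 alone and 0.52 with the hepatocyte covariate. Over the 13 ATF6-branch genes the median log2 fold change was -0.05 with all controls, -0.05 without control 5, -0.04 with the covariate and 0.08 against control 5 alone.

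**Figure D3:**
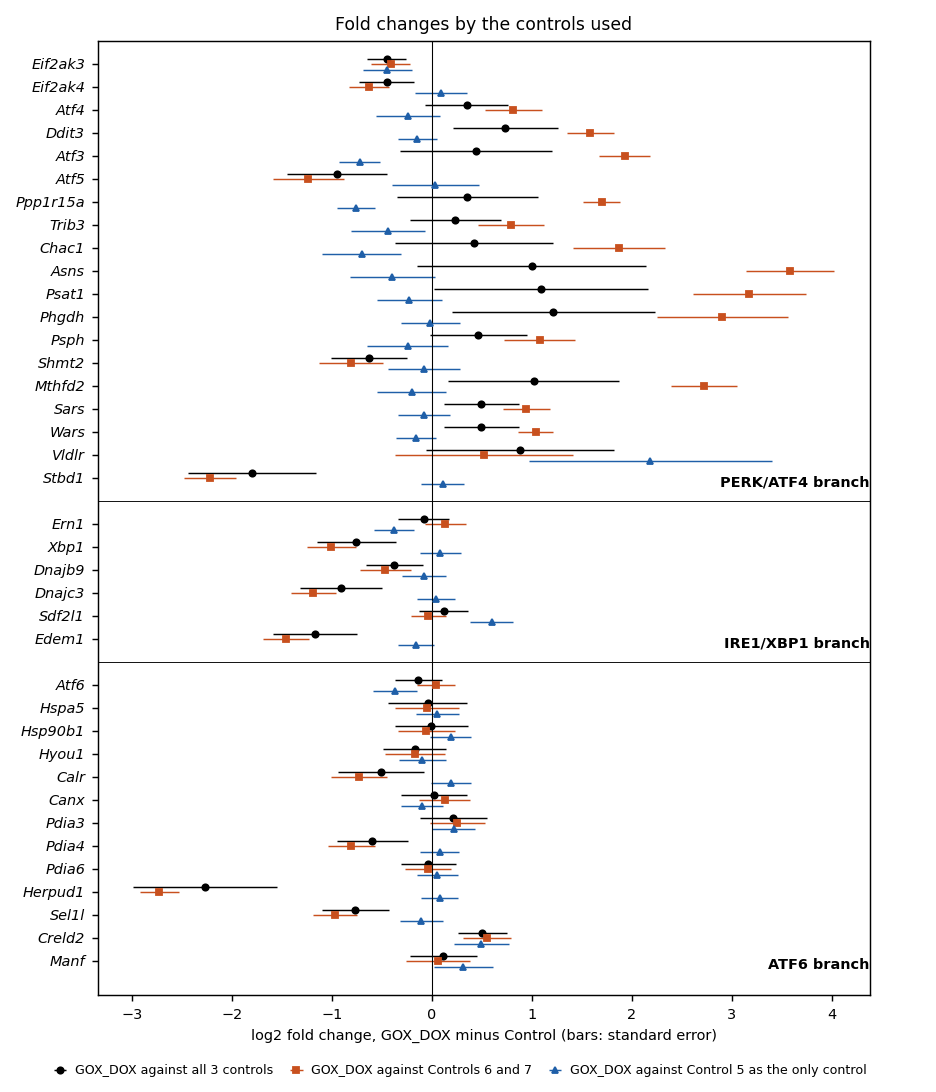
Log2 fold change of GOX_DOX over control for each of the 38 genes (rows, by branch), with bars of 1 standard error, against all 3 controls (black circles), controls 6 and 7 (orange squares) and control 5 as the only control (blue triangles). For most PERK/ATF4 genes orange lies right of 0 and blue at or left of it, Asns going from 3.58 to -0.40. Several genes, among them Eif2ak3, Creld2, Edem1 and Pdia3, have all 3 symbols on the same side.

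Asns, Phgdh, Ddit3 and Atf4 were lowest in the 2 libraries rich in hepatocyte markers, Edem1 and Herpud1 were highest there, and Hspa5 and Creld2 showed neither order. Controls 6 and 7 differ from the other libraries in hepatocyte marker RNA, proliferation genes and interferon-γ response genes at once, and these cannot be told apart here. With the mean hepatocyte marker level as a covariate, 17 of 38 log2 fold changes were positive and 21 negative, and 0 of 38 passed the adjusted threshold.

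**Figure D4:**
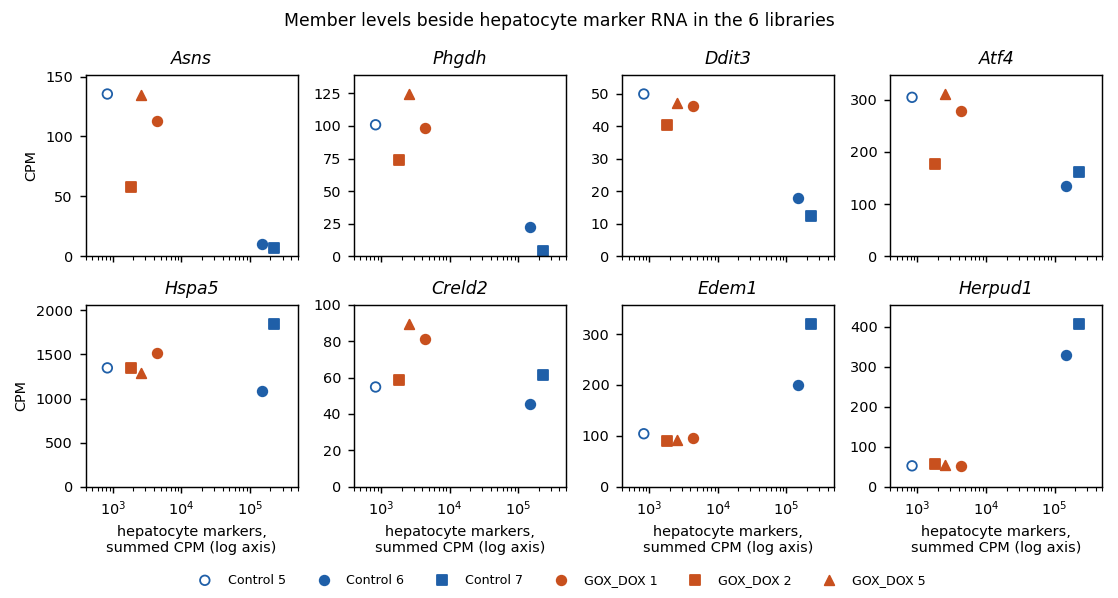
CPM of 8 genes (y axis, from 0) against the summed CPM of 19 hepatocyte markers (x axis, log scale) in the 6 libraries; blue symbols are controls 5 (open circle), 6 (filled circle) and 7 (square), orange symbols GOX_DOX tumors 1 (circle), 2 (square) and 5 (triangle). Controls 6 and 7 lie at the far right, low for Asns, Phgdh, Ddit3 and Atf4 and high for Edem1 and Herpud1.

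A wider list of 76 genes of the same pathways, of which 75 were kept, leaned lower than the 38, whose median log2 fold change was 0.01. Its ATF6 genes had a median of -0.37, beside -0.05 for the 13 ATF6-branch members. Of these 75, 30 log2 fold changes were positive and 45 negative with a median of -0.14, and 0 were called in edgeR with all controls. At an unadjusted p under 0.05 stood 1 higher and 7 lower, and the groups did not overlap for 3 higher and 8 lower; over all genes the shares were 2.87% and 14.6% at that p and 8.87% and 8.31% without overlap. Tnfrsf10b, which encodes death receptor 5 (DR5) and is a CHOP target that the study follows, was at 47.7, 6.95 and 1.72 CPM in controls 5, 6 and 7 and at 29.9, 23.0 and 22.6 CPM in treated tumors 1, 2 and 5. As for Atf3, control 5 was above every treated tumor and controls 6 and 7 were below. The log2 fold change of Tnfrsf10b was 0.41 (SE 1.05, edgeR adjusted p = 0.826), 2.54 without control 5 (edgeR adjusted p = 0.00673) and -0.91 against control 5 alone. By real-time PCR, the paper reports more Atf4, Ddit3 and Tnfrsf10b mRNA in GOx-DOX-LGP tumors than in untreated ones. It also reports raised protein of all 3 in cultured HCC cells given GOx. Those measurements are not part of the counts used here. Bbc3, the pro-apoptotic PUMA gene, was at 10.0, 9.41 and 6.24 CPM in controls and at 4.15, 4.56 and 5.05 CPM in treated tumors. All treated tumors lay below all controls, and its log2 fold change of -0.90 (SE 0.30, edgeR adjusted p = 0.247, DESeq2 adjusted p = 0.0229) was -0.74 without control 5, -1.12 against control 5 alone and -1.06 with the hepatocyte covariate. Cth, which makes cysteine in the transsulfuration pathway, and Fgf21, a hormone secreted by liver, had log2 fold changes of -5.94 and -3.81 with all controls and 0.79 and 0.97 against control 5 alone. DESeq2 with all controls called Cth and Fgf21 as lower (adjusted p = 0.000729 and 0.00996). With Bbc3 these were the 3 genes of the wider list that it called, beside 9.54% of all genes called lower. The PERK/ATF4 genes on this list had a median of 0.30, the IRE1/XBP1 genes of -0.37 and the ATF6 genes of -0.37, with the smallest unadjusted p for Derl2 (-1.02), Sec63 (-1.01) and Sec24d (-0.89) and for Pdia5 (-1.75) and Ero1lb (-1.28) on the log2 scale. These serve ERAD, protein entry into the ER, vesicle coats and disulfide formation. Without control 5, 20 of the 75 were called higher and 22 lower, beside 22.2% and 25.5% of all genes.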

How the data were processed

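RNA of 6 tumors was sequenced from mRNA libraries (KAPA mRNA HyperPrep). The authors deposited raw read counts per gene, not normalized, and a table of DESeq2-normalized counts, a signal in which the deposited counts are divided by a size factor per library and which was used here for gene symbols only. Their methods name TopHat and HTSeq, whereas the submitters' processing notes name Trimmomatic 0.38, HISAT2 2.1.0 and featureCounts 2.0.0, and which made the table could not be settled; build and strand setting are not given in the sources used here, so antisense overlaps such as Ddit3 with Mars were not resolved. Positions are from GENCODE M21 (GRCm38), 1-based.

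Counts were filtered (filterByExpr), scaled by TMM and tested in edgeR 4.0.16 (R 4.3.3) with the quasi-likelihood test over all 15374 genes kept, p being adjusted after Benjamini and Hochberg and called under 0.05; log2 CPM used a prior count of 2. The code was tested on simulated data. Exact permutation tests were two-sided. Alternatives were DESeq2 1.42.0, limma 3.58.1 voom with quality weights, other scalings (library totals, upper quartile, size factors, 12 housekeeping genes), other filters, a threshold of 0.1, the hepatocyte covariate and each library left out; control 5 as the only control was added after the data were seen. The members and lists were chosen with earlier results of these data known. Values in every library are given for sensors and branch factors, members whose groups do not overlap and the 3 largest fold changes per branch; of the wider list, for Tnfrsf10b and, as fold changes, the 3 smallest p per branch, of which 1 gene is not reported here. Nothing in the labels says more of the replicates than that they are separate tumors, so p-values measure the spread between these libraries.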

Additional observations from a re-analysis of the deposited data

How the results depend on the processing

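Neither the labels nor the study's methods describe a pairing of control and treated tumors, so no paired analysis was run. Directions rested on the controls and the scaling. For called genes in all, DESeq2 gave 1516, voom 9254 and leaving out each library 0 to 7745. For the 38, DESeq2 called 1, voom 25 and leaving out each library 0 to 20. For the wider list the counts were 3, 51 and 0 to 42. In each of these ranges the highest value was that without control 5. Of all genes tested, DESeq2 called 0.994% higher and 9.54% lower, and voom 29.2% and 30.9%. Without control 5, edgeR called 22.2% of all genes higher and 25.5% lower. Of the 38, the treated tumors lay above the controls for 5 by library totals (14.6% of all genes), 3 by upper quartile (11.9%), 2 by housekeeping genes (7.19%), 1 with no filter (7.43%), 8 against control 5 alone (27.5%) and 0 to 13 with each library left out (36.8% for the 13, without control 5). They lay below for 1 by library totals (3.02%), 1 by upper quartile (5.27%), 12 against control 5 alone (26.7%) and 2 to 12 with each library left out (35.3% for the 12). Each alternative that leaves out libraries was scaled and filtered anew, so its counts differ slightly from those in the scaling of all 6. The median log2 fold change of IRE1/XBP1 was 0.090 by library totals, -0.22 with the covariate, -0.021 against control 5 alone and -0.74 to -0.23 with each library left out; that of ATF6 was 0.52 by library totals. By upper quartile and voom the ATF6 median was 0.15 and 0.19. Library totals moved the median of all genes to 0.51 and upper quartile to 0.19, and the PERK/ATF4 median was 0.72 by library totals, so that PERK/ATF4 lay above, ATF6 near and IRE1/XBP1 below that shift.

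Single log2 fold changes changed sign as follows. Against control 5 alone they were Eif2ak4 0.091, Atf4 -0.24, Ddit3 -0.15, Atf3 -0.72, Atf5 0.034, Ppp1r15a -0.76, Trib3 -0.44, Chac1 -0.71, Asns -0.40, Psat1 -0.23, Phgdh -0.017, Psph -0.25, Mthfd2 -0.20, Sars -0.081, Wars -0.16, Stbd1 0.11, Xbp1 0.082, Dnajc3 0.042, Hspa5 0.051, Hsp90b1 0.19, Calr 0.19, Canx -0.10, Pdia4 0.077, Pdia6 0.054, Herpud1 0.076. With the hepatocyte covariate they were Atf3 -0.10, Ppp1r15a -0.17, Trib3 -0.15, Chac1 -0.069, Hspa5 0.030, Hsp90b1 0.13, Canx -0.057, Pdia6 0.030. By housekeeping genes they were Hspa5 0.034, Hsp90b1 0.071, Pdia6 0.031. By library totals they were Eif2ak3 0.067, Eif2ak4 0.17, Shmt2 0.027, Ern1 0.38, Dnajb9 0.23, Atf6 0.33, Hspa5 0.53, Hsp90b1 0.58, Hyou1 0.40, Calr 0.16, Pdia4 0.077, Pdia6 0.52. With voom they were Vldlr -0.83, Ern1 0.34, Sdf2l1 -0.061, Atf6 0.14, Hspa5 0.31, Hsp90b1 0.19, Hyou1 0.32, Pdia6 0.12. With no filter they were Hspa5 0.029, Hsp90b1 0.069, Pdia6 0.036. By upper quartile they were Ern1 0.083, Atf6 0.028, Hspa5 0.15, Hsp90b1 0.19, Hyou1 0.021, Pdia6 0.15. With each library left out they ranged over Atf6 -0.25 to 0.040, Canx -0.094 to 0.13, Chac1 -0.024 to 1.87, Ern1 -0.26 to 0.13, Hsp90b1 -0.12 to 0.20, Hspa5 -0.21 to 0.18, Hyou1 -0.38 to 0.084, Manf -0.064 to 0.40, Pdia6 -0.12 to 0.075, Ppp1r15a -0.041 to 1.70, Sdf2l1 -0.037 to 0.27, Trib3 -0.041 to 0.79, Vldlr -0.50 to 1.79. The smallest p that 3 against 3 libraries allow in a permutation test is 0.1, and 0 adjusted calls do not show equal levels.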
